A study of Bos indicus with 6 samples.

Results

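The BCL2 family decides in large part whether the mitochondrial pathway of cell death is opened, and its transcripts were examined here in the isthmus of the cow oviduct. The genes were taken by symbol from a fixed list of 10, the survival genes BCL2, BCL2L1 and MCL1, the pore-forming effectors BAX and BAK1, and the BH3-only genes BID, BCL2L11, BBC3, PMAIP1 and BAD. Of these, 7 matched 1 row each among the 24616 genes of the deposited values. BID, BBC3 and PMAIP1 matched no row by symbol and are not analysed here. The values came from 6 healthy multiparous Nelore (Bos indicus) cows, 3 that ovulated a large follicle and formed a large corpus luteum (LF/LCL) and 3 with a small follicle and small corpus luteum (SF/SCL). All had been presynchronized with a prostaglandin F2α analog and a GnRH agonist and had received an intravaginal progesterone device together with estradiol benzoate, prostaglandin when the device was taken out and again later, and GnRH to induce ovulation. The LF/LCL cows also had a prostaglandin injection at device insertion, and their device was out 42 h before GnRH, against 30 h in SF/SCL. Tissue was collected on day 4. The cows sequenced were the extremes of a ranking on follicle, corpus luteum and steroid measurements, so they do not stand for the average animal of either treatment.

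In healthy cells the survival proteins BCL2, BCL-xL (product of BCL2L1) and MCL1 sit on the mitochondrial outer membrane and hold the effectors BAX and BAK in check. BH3-only proteins carry the death signal: BIM (BCL2L11) binds all the survival proteins, whereas BAD binds BCL2 and BCL-xL and its activity is set by phosphorylation. Once freed, BAX and BAK permeabilize the membrane, cytochrome c leaves the mitochondrion, and APAF1 with caspase-9 starts the caspase cascade. In the oviduct, epithelial cells turn over across the estrous cycle under estradiol and progesterone, and BCL2 is itself known as a steroid-responsive gene. Much of the control of this family acts on the proteins, which RNA levels do not show.

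Libraries held from 23899117 to 34193164 reads assigned to genes. Values are normalized counts, that is, reads per gene divided by the size factor of the library. Levels are compared between cows for 1 gene and not between genes, because transcript lengths of the assembly were not used here. SF/SCL cow 489215 stood apart from the other 5 cows. Among the 15387 genes tested it was the highest of the 6 libraries for 36.7% and the lowest for 35.7%, so each of the 7 genes and each ratio below is also given without it. Smooth muscle, epithelial and ciliated markers were present in every library, except that PIFO of the ciliated list is listed at 0 in all 6. In whole tissue, fewer cells of a type and less RNA per cell cannot be told apart.

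None of the 7 genes passed the adjusted threshold between LF/LCL and SF/SCL. BCL2 and BAK1 were lower in each SF/SCL cow than in each LF/LCL cow. In cow 489215 the family was divided: BCL2L1, MCL1, BAX and BAD were at their highest of the 6 cows, and BCL2, BAK1 and BCL2L11 at their lowest.

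**Figure D1:**
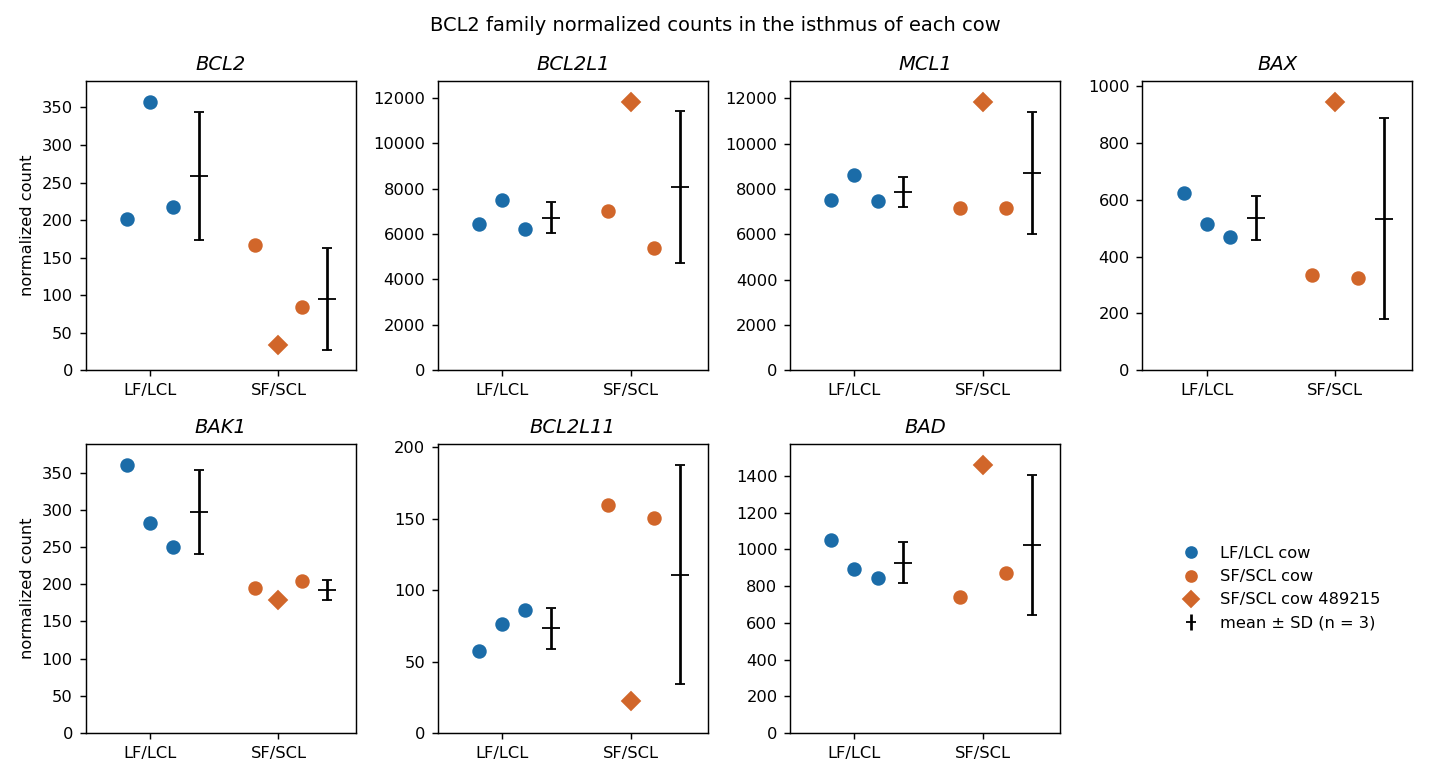
Normalized counts (vertical axes, each starting at 0) of the 7 BCL2 family genes in each of 3 LF/LCL (blue) and 3 SF/SCL (orange) cows, with the group mean and SD in black and cow 489215 as a diamond. The groups are apart for BCL2 and BAK1, and the diamond is the top point of the panels for BCL2L1, MCL1, BAX and BAD.

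BCL2, the founding survival gene of the family (ENSBTAG00000019302), had a normalized count of 202 in LF/LCL cow 617, 357 in cow 79 and 218 in cow 527. In SF/SCL it was 167 in cow 856, 84.5 in cow 97 and 33.3 in cow 489215. The groups did not overlap, although cow 856 lay close to cow 617, and the value of cow 489215 rests on 25 reads (exact 95% Poisson interval 21.5 to 49.1 normalized counts, for counting error alone). The mean was 259 ± 85.1 in LF/LCL and 94.98 ± 67.5 in SF/SCL (SD, n = 3 each). The log2 fold change of SF/SCL over LF/LCL, on the log2(value + 1) scale used throughout, was -1.67 (standard error 0.61, 95% interval -3.14 to -0.20), that is, 3.18-fold lower in SF/SCL. In limma its unadjusted p-value was 0.0317 and its Benjamini-Hochberg adjusted p-value was 0.507. Without cow 489215 the log2 fold change of BCL2 was -1.07 (standard error 0.38, Benjamini-Hochberg adjusted p = 0.101 in limma).

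BCL2L1, whose main product BCL-xL protects many epithelia, had normalized counts of 6452, 7515 and 6213 in LF/LCL cows 617, 79 and 527 (ENSBTAG00000006526). It had 7021 in SF/SCL cow 856, 5365 in cow 97 and 11799 in cow 489215. The ranges overlapped, since cow 856 lay within the LF/LCL values, cow 97 below and cow 489215 above them. The log2 fold change of BCL2L1 was 0.19 (95% interval -0.55 to 0.93), and it was -0.13 without cow 489215 (95% interval -0.48 to 0.22). Cow 489215 thus set the sign of this difference.

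MCL1, a survival gene with a short-lived RNA and protein (ENSBTAG00000015154), varied little among 5 of the cows. Its normalized counts were 7501, 8625 and 7469 in LF/LCL cows 617, 79 and 527. In SF/SCL they were 7166 in cow 856, 7144 in cow 97 and 11813 in cow 489215. Cows 856 and 97 were the lowest of the 6, just under cow 527. The log2 fold change of MCL1 was 0.11 (95% interval -0.49 to 0.70) and -0.13 without cow 489215 (95% interval -0.37 to 0.10).

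BAX, the cytosolic effector that moves to mitochondria on activation (ENSBTAG00000013340), had normalized counts of 623, 516 and 470 in LF/LCL cows 617, 79 and 527. In SF/SCL they were 335 in cow 856 and 324 in cow 97, below each LF/LCL cow, but 943 in cow 489215, above each of them. The group means were nearly equal, 536 ± 78.4 in LF/LCL and 534 ± 354 in SF/SCL (SD, n = 3 each). With all 6 cows the log2 fold change of BAX was -0.19 (95% interval -1.26 to 0.89). It was -0.69 without cow 489215 (standard error 0.16, Benjamini-Hochberg adjusted p = 0.0324 in limma), 1.61-fold lower in SF/SCL. Without cow 856 it was 0.05 and without cow 97 it was 0.08, so the direction depended on single libraries. In RefSeq's annotation of a newer Bos indicus assembly, BAX overlaps FTL, the ferritin light chain gene. The FTL row was also highest in cow 489215, at 7774 against 1163 to 2788 in the other cows, and whether counting used the strand is not given in the sources used here, so the share of reads affected was not tested.

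BAK1, the effector resident on the mitochondrial outer membrane (ENSBTAG00000000428), had normalized counts of 360, 283 and 250 in LF/LCL cows 617, 79 and 527. In SF/SCL they were 194 in cow 856, 204 in cow 97 and 178 in cow 489215. All SF/SCL values were below all LF/LCL values, and the SF/SCL cows lay close together, cow 489215 included. The mean was 298 ± 56.4 in LF/LCL and 192 ± 12.8 in SF/SCL (SD, n = 3 each). The log2 fold change of BAK1 was -0.61 (standard error 0.26, 95% interval -1.23 to 0.00), 1.53-fold lower in SF/SCL, with an unadjusted p-value of 0.0504 from limma. The Benjamini-Hochberg adjusted p-value in limma was 0.578. Without cow 489215 the log2 fold change of BAK1 was -0.56 (standard error 0.21).

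BCL2L11, which encodes the BH3-only protein BIM (ENSBTAG00000024105), had normalized counts of 57.6, 76.0 and 86.1 in LF/LCL cows 617, 79 and 527. In SF/SCL they were 160 in cow 856 and 151 in cow 97, but 22.6 in cow 489215, from 17 reads (exact 95% Poisson interval 13.2 to 36.2 normalized counts). Cows 856 and 97 were therefore above each LF/LCL cow and cow 489215 below each of them. With all 6 cows the log2 fold change of BCL2L11 was 0.18 (95% interval -1.69 to 2.05), the widest interval of the 7 genes. It was 1.09 without cow 489215 (standard error 0.27, Benjamini-Hochberg adjusted p = 0.0391 in limma), 2.13-fold higher in SF/SCL. Without cow 856 it was -0.29 and without cow 97 it was -0.25. In the same newer RefSeq annotation BCL2L11 overlaps ACOXL, and BCL2 and BCL2L1 each overlap an uncharacterized locus. This annotation was not the one used for counting, and how reads in these overlaps were counted was not tested.

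BAD, the BH3-only gene tied to growth factor signalling (ENSBTAG00000012511), had normalized counts of 1052, 892 and 842 in LF/LCL cows 617, 79 and 527. In SF/SCL they were 743 in cow 856, 872 in cow 97 and 1459 in cow 489215. Cow 97 lay inside the LF/LCL range. The log2 fold change of BAD was 0.09 (95% interval -0.61 to 0.79), and -0.20 without cow 489215 (95% interval -0.54 to 0.14). A row named BID1 (ENSBTAG00000013988), whose relation to BID the values do not state and which was taken for its name, had normalized counts of 529 to 659 in LF/LCL and of 561, 908 and 539 in SF/SCL cows 856, 489215 and 97.

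Of the 7 genes, 0 had an adjusted p-value under 0.05 in limma, in edgeR or in DESeq2, where 0% of all genes tested were called by limma, 0% by edgeR and 2.70% by DESeq2. At an unadjusted p-value under 0.05 there was 1 gene in limma, BCL2, against 8.66% of all genes tested, and there were 2 genes, BCL2 and BAK1, in edgeR (8.49% of all genes) and in DESeq2 (11.5%). With array weights in limma, which gave cow 489215 little weight, 4 of 7 passed the adjusted threshold and the same number the unadjusted one, against 29.8% and 42.4% of all genes tested. The groups did not overlap for 2 of 7 genes, against 18.1% of all genes tested. Without cow 489215, 2 of 7 genes passed the adjusted threshold in limma, BAX lower and BCL2L11 higher in SF/SCL, against 18.2% of the genes tested. In the same 5 cows 4 of 7 had an unadjusted p-value under 0.05, against 33.9%, and the groups did not overlap for 5 of 7, against 52.0%. With so few genes, these counts do not set the family apart from the other genes tested.

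**Figure D2:**
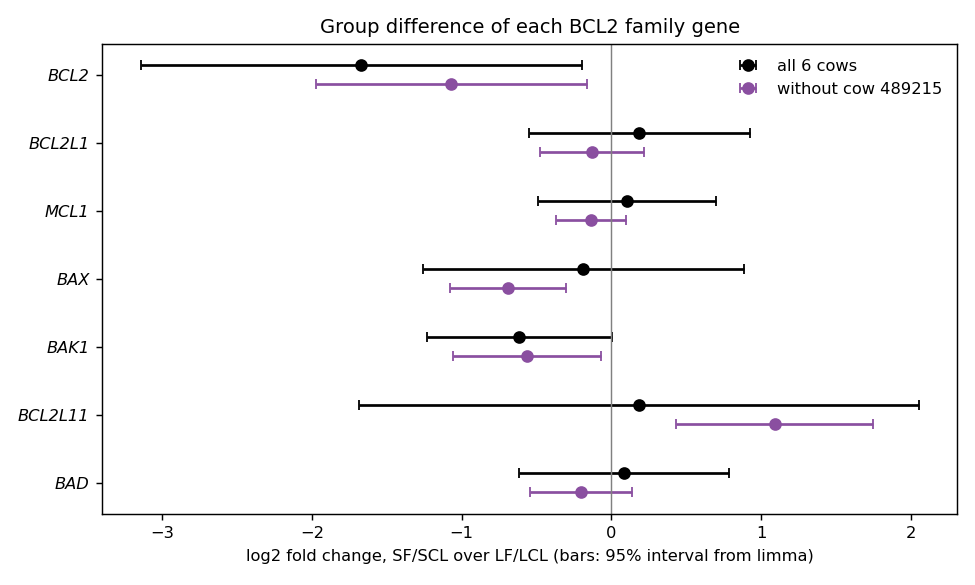
Log2 fold change of SF/SCL over LF/LCL (horizontal axis) for each of the 7 genes, from limma, with all 6 cows (black) and without SF/SCL cow 489215 (purple), and bars for the 95% interval. The interval of BCL2 lies below 0 in both fits, those of BAX and BCL2L11 cross 0 with all cows and not without cow 489215, and those of BCL2L1, MCL1 and BAD cross 0 in both.

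The height of cow 489215 also depended on the scale. On normalized counts its level was 2.01 times the median of the other 5 cows for BAX, 1.83 times for BCL2L1, 1.67 times for BAD and 1.58 times for MCL1. On reads divided by the library total, which does not use the size factors, these were 1.55, 1.45, 1.30 and 1.25 times. On the same scales BCL2 was at 0.165 and 0.130 times, BCL2L11 at 0.263 and 0.203 times, and BAK1 at 0.713 and 0.551 times the median of the others. Both scales thus placed the same 4 genes above and the same 3 genes below the median of the other cows.

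Ratios between a pair of members within 1 library depend on the size factor only through the pseudocount of 1, and the balance of survival to death genes is often read from them. BCL2 to BCL2L11 compares a survival gene with a BH3-only gene whose product it binds. This ratio was 3.47, 4.64 and 2.51 in LF/LCL cows 617, 79 and 527, and 1.05, 1.45 and 0.564 in SF/SCL cows 856, 489215 and 97. All SF/SCL values were below all LF/LCL values, and cow 489215, in which both genes were at their lowest, lay at the top of the SF/SCL group. Its ratio rests on 25 reads of BCL2 and 17 of BCL2L11, and the counting error of the ratio was not computed. The mean log2 ratio was 1.78 ± 0.44 in LF/LCL and -0.07 ± 0.69 in SF/SCL (SD, n = 3 each), a difference of -1.85 (exact permutation test over 20 assignments, two-sided, p = 0.1, the smallest p-value possible here, or 0.3 after Benjamini-Hochberg adjustment over 3 ratios). Without cow 489215 the difference was -2.16.

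BCL2 to BAX, the classical survival to death ratio, was 0.325, 0.692 and 0.465 in LF/LCL cows 617, 79 and 527. It was 0.500, 0.0363 and 0.263 in SF/SCL cows 856, 489215 and 97, so cow 856 lay inside the LF/LCL range and cow 489215 far below it. The difference of the mean log2 ratio was -1.48 (exact permutation test, two-sided, p = 0.3) and -0.38 without cow 489215. BCL2L1 to BAD ran from 6.13 to 8.42 in LF/LCL and from 6.14 to 9.44 in SF/SCL, with cow 489215 at 8.08. Its groups overlapped almost wholly, with a difference of 0.10 on the log2 scale (exact permutation test, two-sided, p = 0.7), or 0.07 without cow 489215. The planned ratio of MCL1 to PMAIP1 could not be formed.

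**Figure D3:**
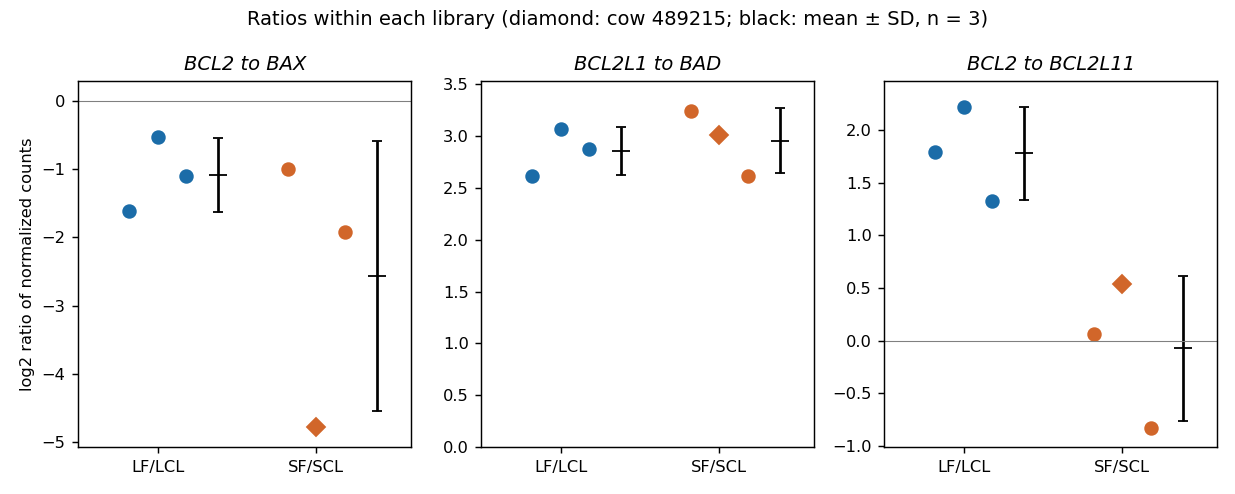
Log2 ratio of normalized counts (vertical axes, not scaled for transcript length) for 3 pairs of BCL2 family genes in each cow, with the group mean and SD in black and cow 489215 as a diamond. The groups are apart for BCL2 to BCL2L11, overlap for BCL2L1 to BAD, and for BCL2 to BAX cow 489215 lies far below all other cows.

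Of 11 further BCL2 family genes, 9 had a row and 7 passed the filters. Their median log2 fold change was -0.11, against -0.02 over all genes tested, and 0 of the 7 had an unadjusted or adjusted p-value under 0.05 in limma. With DESeq2, 1 had an unadjusted and 0 an adjusted p-value under 0.05, against 11.5% and 2.70% of all genes tested. Without cow 489215 the median was -0.25. In that limma fit 2 genes, BCL2L12 and BCL2L15, had an unadjusted and 0 an adjusted p-value under 0.05, against 33.9% and 18.2%. BCL2L2, which encodes the survival protein BCL-w, had normalized counts of 2891, 2784 and 3167 in LF/LCL cows 617, 79 and 527 and of 2538, 2578 and 2552 in SF/SCL cows 856, 489215 and 97. These groups did not overlap, and the log2 fold change of BCL2L2 was -0.20 (-0.21 without cow 489215). BCL2A1, a survival gene of blood cells and inflamed tissue, had 27.2 to 42.9 in LF/LCL and 46.3, 69.2 and 84.5 in SF/SCL cows 856, 489215 and 97, a log2 fold change of 0.90 (0.85 without cow 489215) with an unadjusted p-value of 0.0598 from limma.

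BOK, an effector related to BAX and BAK1, was like BAX highest in cow 489215, with 2327 there, 593 to 1161 in LF/LCL, and 561 and 668 in cows 856 and 97. BMF, a BH3-only gene known for its tie to the cytoskeleton, was like BCL2L11 lowest there, with 24.0 in cow 489215, 103 to 154 in LF/LCL, and 166 and 152 in cows 856 and 97. BCL2L12 and BCL2L13 were also highest in cow 489215, at 513 and 3138, against 223 to 331 and 1983 to 2730 in the other cows. BCL2L15 ranged from 14.4 to 74.6. BCL2L14 did not pass the filter, because its SD exceeded its mean. It had 240 in cow 856, 166 in cow 97, 29.3 in cow 489215 and 4.39 to 15.7 in LF/LCL, so the groups did not overlap. HRK, a BH3-only gene of neurons, stayed at 4.19 or less in each cow. A row named BIKBA (ENSBTAG00000016683), whose relation to BIK the values do not state and which was taken for its name, had 2421, 3121 and 3169 in LF/LCL cows 617, 79 and 527. In SF/SCL it had 5723, 5625 and 6064 in cows 856, 489215 and 97, a log2 fold change of 1.01 (Benjamini-Hochberg adjusted p = 0.351 in limma, and 0.00629 without cow 489215). Without that cow 18.2% of all genes tested passed the adjusted threshold. The BIKBA row is not among the further BCL2 family genes counted above, and its name alone does not make it a member.

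In the lists of genes around the family, 0 genes passed the adjusted threshold in limma with all 6 cows. APAF1, CASP9, CYCS, the VDAC genes, FOXO3, DDIT3 and XIAP are named below for their level in cow 489215. FADD, RIPK1, TNF and TNFSF10 are named because their groups did not overlap. All of these were chosen after their values were seen. Downstream of BAX and BAK1, the mitochondrial effectors (12 of 13 genes with a row, 13 rows tested) had a median log2 fold change of 0.12 (-0.06 without cow 489215), and 0 rows had an unadjusted p-value under 0.05 in limma or DESeq2. APAF1, the scaffold of the apoptosome, had 540 to 767 in LF/LCL, 934 and 846 in SF/SCL cows 856 and 97, and 125 in cow 489215. The CYCS rows, for cytochrome c, and VDAC1 and VDAC2, the channels of the outer membrane, were each highest in cow 489215. So was each other row of this list except APAF1 and CASP9, which were lowest there. Over all genes tested, 36.7% were highest in that cow. Without that cow 0 of the 13 rows passed the adjusted threshold in limma, against 18.2% of all genes tested. In the same fit 4 had an unadjusted p-value under 0.05, against 33.9%.

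Upstream, the stress regulators (15 genes tested) had a median log2 fold change of -0.14, with 0 at an unadjusted p-value under 0.05 in limma or DESeq2. The median was 0.04 in DESeq2 and 0.07 without cow 489215, so it had no stable sign. FOXO3, a transcription factor known to drive BCL2L11, had 935 to 1075 in LF/LCL, 1098 and 1066 in cows 856 and 97, and 87.9 in cow 489215. DDIT3, a stress factor known to act on several BH3-only genes, had 401 to 441 in LF/LCL, 462 and 368 in cows 856 and 97, and 999 in cow 489215. Without cow 489215, genes past the adjusted threshold included AKT1 and ATF4, lower in SF/SCL, with log2 fold changes of -0.43 and -0.37, and TP73, higher in SF/SCL, at 0.74. In that limma fit 18.2% of all genes tested passed.

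In the death receptor arm that reaches the mitochondrion through BID (12 genes tested), 2 genes had an unadjusted p-value under 0.05 in limma, against 8.66% of all genes tested, and the groups did not overlap for 6 of 12, against 18.1%. FAS, a death receptor, had 308, 330 and 304 in LF/LCL cows 617, 79 and 527 and 623, 346 and 642 in SF/SCL cows 856, 489215 and 97. Its log2 fold change was 0.72 (unadjusted p = 0.0496, Benjamini-Hochberg adjusted p = 0.577 in limma). CASP8, the protease that cleaves BID, had 1291, 1070 and 1185 in LF/LCL and 1675, 1615 and 1773 in SF/SCL in the same order, a log2 fold change of 0.52 (unadjusted p = 0.0192, Benjamini-Hochberg adjusted p = 0.457 in limma). Both passed the adjusted threshold without cow 489215, where 18.2% of all genes tested passed. CASP8 is also among the apoptosis genes that the study chose on these same libraries, so its direction here is not independent evidence. FADD and RIPK1, which carry the receptor signal, were also higher in each SF/SCL cow than in each LF/LCL cow, with log2 fold changes of 0.43 and 0.28. The ligands TNF and TNFSF10 were lower in each, with -1.02 and -0.37, and none of these 4 had an unadjusted p-value under 0.05 in limma. The median of the arm was 0.03, with 6 genes higher in each group.

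Among regulators of the MCL1 and BCL2 proteins, 14 of 15 genes had a row and 16 rows were tested. Their median log2 fold change was -0.02, or 0.18 without cow 489215. In limma 3 rows had an unadjusted p-value under 0.05, against 8.66% of all genes tested, and all 3 were higher in SF/SCL. These were both rows of TPT1, whose product binds MCL1 and BCL-xL, and TMBIM6, which encodes BAX inhibitor 1. The main TPT1 row had 69085, 67156 and 73513 in LF/LCL cows 617, 79 and 527 and 112877, 123337 and 120627 in SF/SCL cows 856, 489215 and 97. Its log2 fold change was 0.77 (Benjamini-Hochberg adjusted p = 0.412 in limma), and reads could be divided between the rows of TPT1. TMBIM6 had 33206 to 38041 in LF/LCL and 50617 to 60717 in SF/SCL, a log2 fold change of 0.60. It is also among the apoptosis genes that the study chose on these same libraries, so its direction here is not independent evidence. Without cow 489215, 4 rows passed the adjusted threshold, against 18.2% of all genes tested. These were both rows of TPT1, TMBIM6 and HUWE1, which encodes a ligase that marks MCL1 for degradation. With DESeq2, 2 rows passed with all 6 cows, against 2.70% of all genes tested.

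Of the inhibitors of apoptosis, 0 of 5 had an unadjusted p-value under 0.05 in limma or DESeq2. Their median log2 fold change was -0.01, and 0.38 without cow 489215, with all 5 then higher in SF/SCL. XIAP had 1190 to 1462 in LF/LCL, 1663 and 1785 in cows 856 and 97, and 325 in cow 489215. BIRC3 had 743 to 803 in LF/LCL and 831 to 1185 in SF/SCL. It alone of the 5 passed the adjusted threshold without cow 489215, against 18.2% of all genes tested.

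The study lists 9 genes under apoptosis for the SF/SCL isthmus, chosen on these same libraries, so their direction is not independent evidence. Of these, 6 passed the filters: TMBIM6, CASP8, CLU, WDR92, ITM2B and CASP13. Each was higher in SF/SCL at an unadjusted p-value under 0.05 in limma, against 8.66% of all genes tested. With all cows 0 passed the adjusted threshold, and 6 passed without cow 489215, against 18.2%. Their median log2 fold change was 0.63, and with DESeq2 4 of them passed the adjusted threshold, against 2.70%. CLU, which encodes clusterin, a chaperone whose intracellular form is known to bind BAX, had 15011, 18159 and 17497 in LF/LCL cows 617, 79 and 527 and 43374, 32188 and 33341 in SF/SCL cows 856, 489215 and 97. Its log2 fold change was 1.10 (Benjamini-Hochberg adjusted p = 0.367 in limma). BNIPL, TNS4 and IFI6 did not pass the filter on the SD, and each was far higher in cows 856 and 97 than in cow 489215. None of the 10 BCL2 family genes is in that list, while TMBIM6 and CLU are tied to BAX as background.

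**Figure D4:**
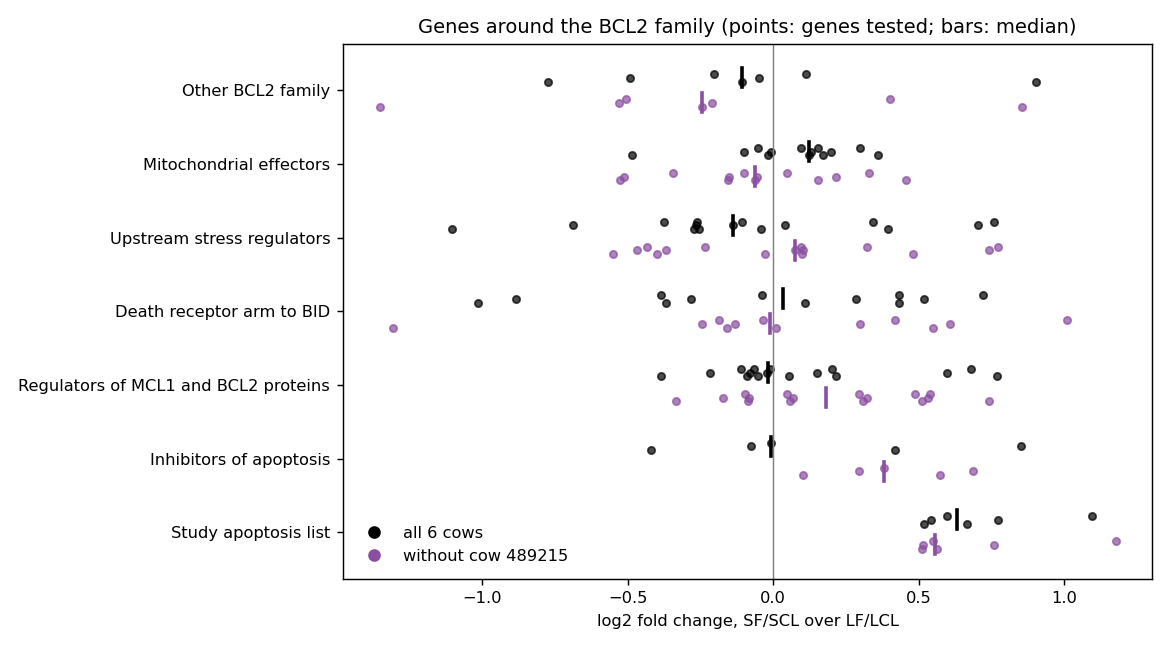
Log2 fold change of SF/SCL over LF/LCL (horizontal axis) for each gene tested in 7 lists around the BCL2 family, from limma, with all 6 cows (black) and without cow 489215 (purple), and a bar at the median. The medians of the first 6 lists lie between -0.14 and 0.12 with all cows, and the genes that the study chose on these libraries all lie above 0.

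The genes whose pattern over the 6 cows was most like that of a member were found by the root mean square distance of centred log2 values among the 15387 genes tested. For BCL2 they were SLC6A17, THSD7A and THBS2, at distances of 0.240, 0.241 and 0.270. THBS2, which encodes the matrix protein thrombospondin 2, had 396, 664 and 293 in LF/LCL cows 617, 79 and 527 and 245, 67.9 and 197 in SF/SCL cows 856, 489215 and 97, with the same lowest cow as BCL2. For BAX they were ABHD11, MORG1 and NT5M, at 0.0268, 0.0468 and 0.0624, and for MCL1 they were CUTC, B4GALT3 and ADSL, at 0.0165, 0.0205 and 0.0377. The distance was not scaled for the spread of a gene over the cows, which was wider for BCL2, so distances are not compared between members. CUTC and ADSL, the latter an enzyme of purine synthesis, were like MCL1 highest in cow 489215. A shared highest or lowest cow follows from the choice by likeness.

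The summed RNA of cell type markers differed between cows along with the members. Smooth muscle markers (7 of 8 with a row) summed to 705137 to 825682 in LF/LCL, to 320565 and 386979 in SF/SCL cows 856 and 97, and to 1217824 in cow 489215. Each of the 7 was lower in cows 856 and 97 than in each LF/LCL cow, and 5, ACTA2 and TAGLN among them, were highest in cow 489215. MYH11 was there at 116653, below its 137623 to 191119 in LF/LCL, and LMOD1 lay within its LF/LCL range. BAX, MCL1, BCL2L12, BCL2L13 and BCL2L15 were, like the sum, lowest in cows 856 and 97 and highest in cow 489215. Within LF/LCL the order of the cows differed from that of the sum for MCL1, BCL2L12 and BCL2L15. Fibroblast markers (7 of 7) summed to 311644 to 390183 in LF/LCL and to 162690 to 224631 in SF/SCL without overlap. Of the 7 markers, 4 were without overlap, whereas the groups overlapped for PDGFRA, DCN and DPT. BCL2 and BAK1 were also without overlap, but their order within the groups differed from that of the sum. Within SF/SCL the sum was highest in cow 489215, where BCL2 and BAK1 were lowest. Within LF/LCL cow 617 had the lowest sum and the highest BAK1. Ciliated markers (10 of 10, PIFO at 0) summed to 33119 to 40245 in LF/LCL, 55341 and 62295 in cows 856 and 97, and 29869 in cow 489215. Of the 9 detected, all but CAPS were higher in cows 856 and 97 than in each LF/LCL cow, and 5, FOXJ1 among them, were lowest in cow 489215, while DNAI1 and CCDC39 were there above each LF/LCL cow. BCL2L11 was, like the sum, highest in cows 856 and 97 and lowest in cow 489215, but its order within LF/LCL was the reverse.

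Secretory and general epithelial markers without OVGP1, the oviductal glycoprotein that dominates their sum in 2 cows, came to 26561 to 41744 in LF/LCL and to 46470 to 67576 in SF/SCL. Of these, EPCAM, KRT7, KRT8 and KRT18 were higher in each SF/SCL cow than in each LF/LCL cow, and the groups overlapped for the others. PAX8 was lowest of all cows in cow 489215, at 469, and CLDN4 was lowest in cow 856, at 344. OVGP1 had 287 to 1950 in LF/LCL, 271794 and 325158 in cows 856 and 97, and 730 in cow 489215. Mesothelial markers (5 of 5, CALB2 at 0 in 2 libraries) summed to 2452 to 3314 in LF/LCL, to 26249 and 26728 in cows 856 and 97, and to 3483 in cow 489215. MSLN and WT1 made up nearly all of this sum, whereas LRRN4 was at 175 to 412 in LF/LCL and at 16.3 or less in SF/SCL, and UPK3B was lowest in cow 856 and highest in cow 97. Leukocyte markers (8 of 8) ran from 4165 to 7053 and endothelial markers (5 of 6) from 9839 to 14554, with overlap of the groups. Cell cycle genes (5 of 5) summed to 2709 to 5222 in LF/LCL, 1146 and 1014 in cows 856 and 97, and 4882 in cow 489215, an order set by CCNB1. Without CCNB1 they summed to 320.1 to 638 in LF/LCL and 415 to 865 in SF/SCL, with overlap of the groups and cow 856 highest. The part of these cell types in the differences of the BCL2 family genes was not tested.

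**Figure D5:**
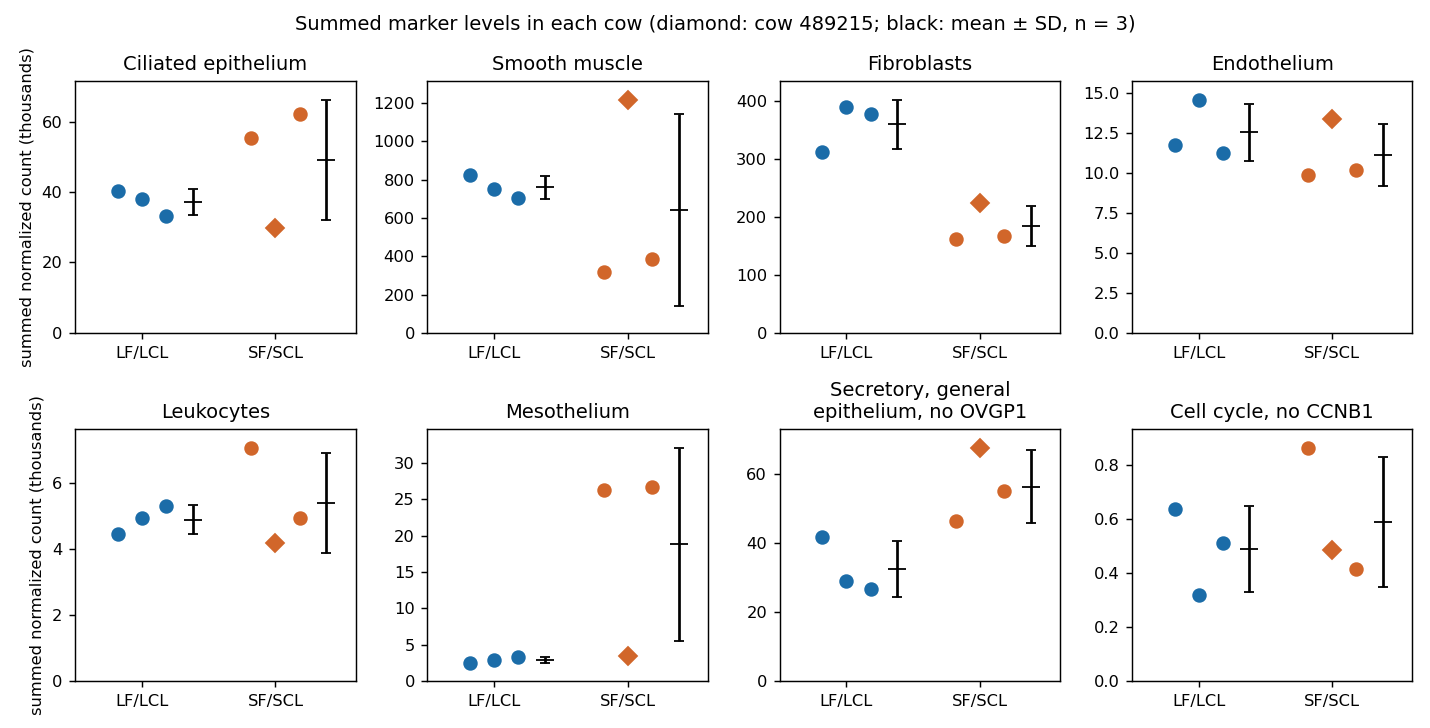
Summed normalized counts of marker lists (vertical axes, each starting at 0) in each cow, with the group mean and SD in black and cow 489215 as a diamond. The summed fibroblast markers are higher in each LF/LCL cow than in each SF/SCL cow. Cow 489215 lies far from cows 856 and 97 for the sums of smooth muscle, mesothelial and ciliated markers.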

How the data were processed

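Isthmus RNA of 6 cows was sequenced with 1 poly(A) library per cow. The authors filtered the reads, aligned them to the masked Bos taurus UMD 3.1 assembly with TopHat2 2.0.8 and Bowtie2 2.1.0, counted reads per gene with HTSeq 0.5.4p2 and divided by DESeq 1.12.1 size factors. These deposited signal values are therefore normalized counts. Of the values, 100% were whole multiples of 1 step per library (tolerance 0.1 reads), which gave the reads back. The genes and lists were chosen with earlier results of these data known, and all members, list genes with a p-value under 0.05, list genes past the adjusted threshold without cow 489215, further BCL2 family genes and the 3 nearest genes to BCL2, BAX and MCL1 are named, except 1 list gene that is not reported here. RefSeq symbols of a newer assembly served only to find overlapping genes.

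SF/SCL was compared with LF/LCL by limma 3.58.1 in R 4.3.3 (trend and robust) on log2(value + 1), over the 15387 genes whose mean over the 6 libraries exceeded both 5 and the SD. The adjusted threshold was 0.05. edgeR 4.0.16 and DESeq2 1.42.0 on the recovered reads, other pseudocounts, filters, scalings and weights, and leaving out each cow were tried as alternatives. The limma fit was tested on simulated data. Ratios were tested by exact permutation with scipy 1.17.1. Each cow gave 1 library, so the tests rest on 3 animals a group, whose numbers do not pair them.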

Additional observations from a re-analysis of the deposited data

How the results depend on the processing

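The count of BCL2 family genes past the adjusted threshold, 0 of 7, was the same with edgeR, DESeq2, TMM rescaling, library size scaling (chosen after seeing the data), other pseudocounts and other filters. It was 4 with array weights, BCL2, BAX, BAK1 and BCL2L11, against 29.8% of all genes tested, where cow 489215 had a weight of 0.0477 and the fit of the weights ended without converging. Leaving out each cow in turn it ran from 0 to 2, with 2 without cow 489215. The count at an unadjusted p-value, 1, was 2 with DESeq2, edgeR, TMM rescaling and library size scaling, 4 with array weights, and 0 to 4 when a cow was left out. It was 4 without cow 489215 and 0 without cow 617, 79, 527 or 97.

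The log2 fold changes of BCL2 (from -2.21 to -1.07 without each cow) and BAK1 (from -0.73 to -0.47) kept their direction under all alternatives run. With array weights BCL2L1 was -0.29, MCL1 -0.18 and BAD -0.10, opposite to their values with equal weights, and BAD was -0.0033 with library size scaling, which moved the median of all genes tested to -0.10. Leaving out each cow, BCL2L1 ran from -0.13 to 0.44, MCL1 from -0.13 to 0.23, BAX from -0.69 to 0.078, BCL2L11 from -0.29 to 1.09 and BAD from -0.20 to 0.29. The log2 ratio of BCL2L1 to BAD ran from -0.040 to 0.27, below 0 without cow 617 or 856. That of BCL2 to BCL2L11 ran from -2.16 to -1.48, and that of BCL2 to BAX from -2.27 to -0.38. The causes were not tested. With 3 cows a group the intervals given are wide, so a gene without a call may still differ. The intervals are not adjusted for the number of genes tested.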
